A study of Ovis aries with 2 samples.

Results

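KRT8, KRT18, KRT19 and KRT80 are keratin genes of epithelia, and the 4 of them held 6 of the 2288 PPARG intervals in the sheep conceptus. An interval is a stretch of the genome where the authors listed signal above their threshold. It belonged to these genes where the authors' table named at least 1 of them beside it, with an interval assigned to both KRT8 and KRT18 counted once. The 4 genes were chosen with earlier results of these data known, so their values are given as a description.

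Keratins are the intermediate filament proteins of epithelial cells, and a filament is built from pairs of an acidic type I and a basic type II keratin. KRT8 (type II) and KRT18 (type I) form the pair of simple epithelia and are among the earliest keratins of the mammalian embryo, where they mark the trophectoderm, the outer epithelium of the conceptus. KRT19 is a small type I keratin of simple epithelia, and KRT80 is a type II keratin found in many epithelia near cell junctions. PPARG is a ligand-activated nuclear receptor that binds DNA together with a retinoid X receptor.

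The chromatin came from conceptuses flushed on day 14 of pregnancy from crossbred ewes, given in the labels as columbia/ramboulette. Chromatin immunoprecipitation with a rabbit polyclonal antibody against PPARG gave 1 sequenced library, and unprecipitated chromatin gave 1 input library. Both libraries pooled 4 conceptuses, 1 from each of 4 ewes. There was no replicate library and no second genotype or treatment, so no value below carries a biological error and no test was made. RNA and protein were not measured, and whole conceptus tissue was used, so whether the trophectoderm was the source of the signal was not tested. Of 6 trophectoderm markers outside the keratins that were among the gene names used, 1 held an interval, against 9.69% of all genes named. This was the transcription factor gene GATA3, while CDX2, GATA2, TFAP2C, ELF5 and HAND1 had none assigned. A further planned marker, IFNT, was not among the gene names used and could not be assessed.

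The highest signal within an interval, called its height, ranged from 10 to 155 signal units in the PPARG library, with a median of 22. The 5 intervals of the input library ranged from 19 to 93, and none of them overlapped an interval at the 4 keratin genes. Input signal at the keratin intervals is therefore not given, and no ratio of PPARG to input signal was formed. Read totals are unknown, so no counting error is given for a height. Positions refer to build Oar_v3.1.

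KRT8 and KRT18 lay head to head, and the stretch between their starts held 3 low PPARG intervals. The summits and distances in the table gave a single start for each gene, with KRT8 on the forward strand at position 133343306 of chromosome 3 and KRT18 on the reverse strand at 133333286. The starts were 10020 bp apart, and the 3 intervals covered 2359 bp of that stretch (23.5%). Each of the 3 was upstream of both genes and assigned to no other gene.

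The interval closest to KRT8 (chr3:133342548-133343363) had a height of 14 and a mean signal of 8.46, with its summit 378 bp upstream of the KRT8 start and 9642 bp upstream of that of KRT18. It reached 57 bp past the KRT8 start and was the only one of the 6 keratin intervals to cover the start of a member gene. The interval beside it (chr3:133340982-133341920) had a height of 13 and a mean signal of 8.13, at 1770 bp upstream of KRT8 and 8250 bp upstream of KRT18. The edges of these 2 intervals were 628 bp apart and their summits 1392 bp apart. The interval closest to KRT18 (chr3:133335207-133335870) had a height of 12 and a mean signal of 7.15, at 2266 bp upstream of KRT18 and 7754 bp upstream of KRT8. No summit was closer to the KRT18 start than this, and all of its 3 intervals were shared with KRT8.

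KRT8 alone was assigned an interval inside the gene (chr3:133358563-133359795), with a height of 22 and a mean signal of 11.3. Its summit lay 15862 bp past the KRT8 start, a position that the authors' annotation placed within the gene. The extent of that gene model was not checked, since no annotation of Oar_v3.1 was used here. This interval equalled the median height of all PPARG intervals and was higher than each of the 3 between the starts. It was 25882 bp from the KRT18 start and was not assigned to KRT18.

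**Figure D1:**
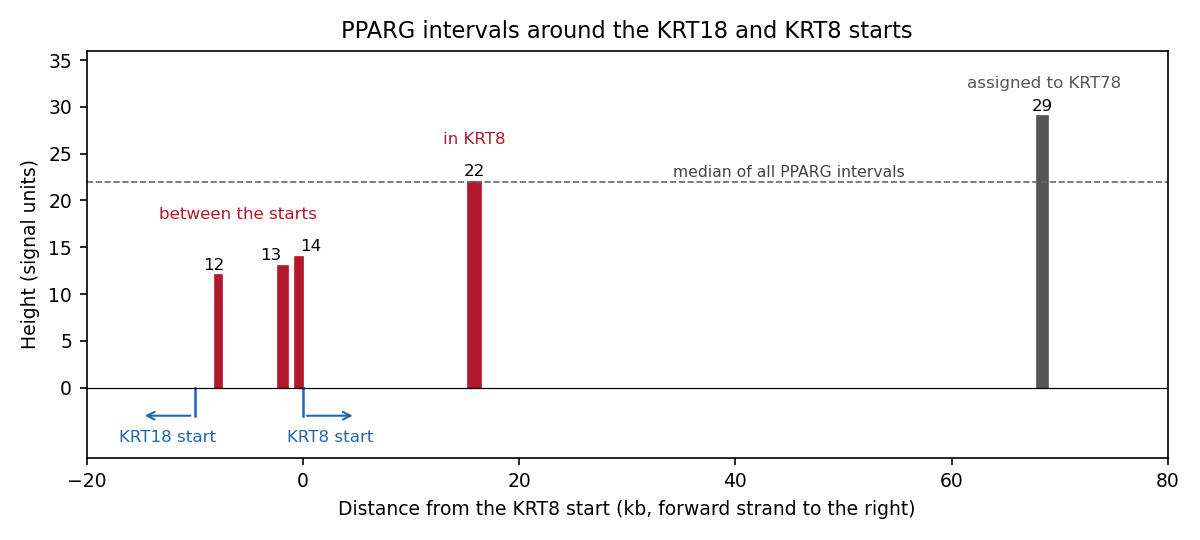
PPARG intervals by distance from the KRT8 start (kb, forward strand to the right), drawn as bars as wide as the interval and as high as its highest signal (signal units). Red bars are assigned to KRT8, the grey bar to KRT78, blue arrows are the starts and directions of KRT18 and KRT8, and the dashed line is the median of all PPARG intervals. The 3 bars between the starts (12, 13 and 14) lie below the median of 22, which the bar in KRT8 equals.

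The 3 intervals between the starts were near the bottom of the list by height. Intervals of 12 or lower made up 3.80% of all PPARG intervals, those of 13 or lower 7.65% and those of 14 or lower 12.8%. There were 77 intervals that lay upstream of 2 or more genes and in or downstream of none, and these had a median height of 26, with quartiles of 19 and 39. Among them the 3 keratin intervals ranked 65, 71 and 74 from the highest. CpG islands, which are GC-rich and mark many promoters, were present in 52 of the 77 (67.5%) and in none of the 3 at the keratins.

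The KRT8 locus held several intervals close together. Among 1805 gene names other than tRNA names, 1582 had 1 interval, and KRT8 with its 4 was among the 10 names with 4 or more. The median height over its intervals, 13.5, was below that of the other 9 names, whose medians ran from 16 (VMP1) to 32.5 (NOS2). KRT8 and KRT18 were 1 of 3 pairs of names that shared at least 3 intervals, out of 737 pairs that shared any. The other 2 pairs were PRDX5 with TRMT112 (heights from 21 to 43) and TUBD1 with VMP1 (from 12 to 39), and in neither was a shared interval upstream of both genes. The summits of the 4 KRT8 intervals spanned 23616 bp, and runs of 4 neighbouring intervals within such a span occurred in 5 separate regions of the genome, the KRT8 locus included. The upstream limit of gene assignment was 10470 bp, and the KRT18 and KRT8 starts were 10020 bp apart. Any interval between these starts therefore lay within the limit for both genes. The rule for the members also asked for shared intervals of KRT8 and KRT18, so these counts describe the locus and are not evidence of anything particular to it.

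**Figure D2:**
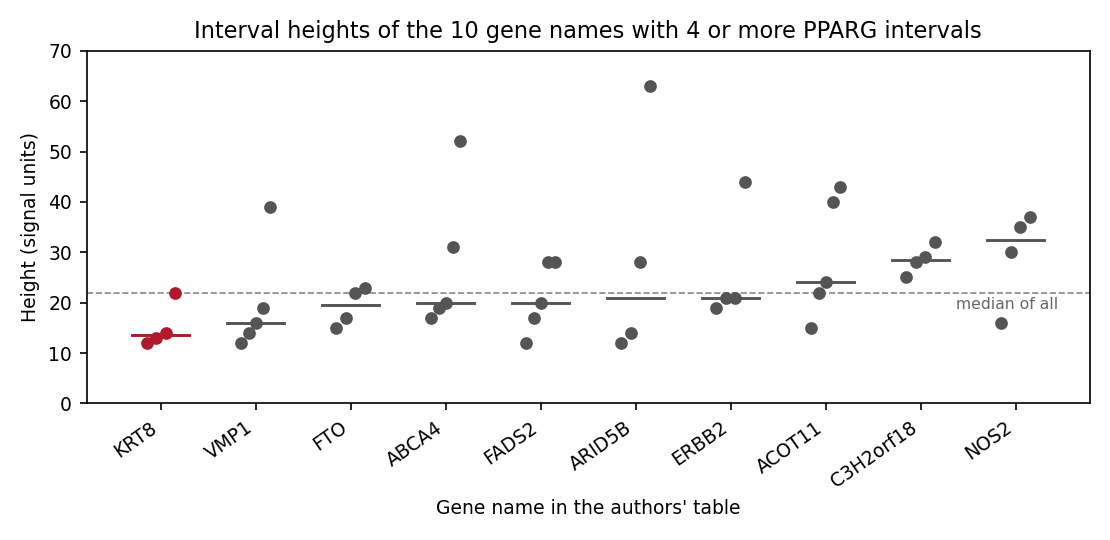
Heights (signal units) of the intervals of each of the 10 gene names with 4 or more PPARG intervals, tRNA names left out. Points are intervals, short bars are the medians of each name and the dashed line is the median of all PPARG intervals; KRT8, in red, has heights of 12, 13, 14 and 22.

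KRT19 had 1 interval of middling height, and it lay next to another keratin gene, KRT15. The interval (chr11:41219661-41220827) had a height of 25 and a mean signal of 13.1, and 58.7% of all PPARG intervals were lower. The authors assigned it to KRT19, as 4610 bp downstream of the KRT19 start and past the end of the gene, and to LOC101117682, as 5130 bp upstream of the start of that gene. The RefSeq name table gives the gene ID in this LOC name to KRT15, a type I keratin of basal cells of stratified epithelia. In the gene order of that table, from assembly ARS-UI_Ramb_v3.0, KRT15 and KRT19 were direct neighbours. A promoter mark means that the authors counted at least 1 promoter for an interval, over a distance that is not given. The promoter mark of the KRT19 interval came from 1 promoter, and the table does not say whose. Of the assigned genes, only LOC101117682 had the interval upstream of its start. Among the 326 intervals with a promoter mark and no CpG island the KRT19 interval ranked 112, and the median of that class was 21.

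KRT80 held the highest of the keratin intervals, and it lay away from the start of the gene. The interval (chr3:134048578-134049929) had a height of 94 and a mean signal of 25.9, with a length of 1351 bp, against a median length of 876 bp over all PPARG intervals. It ranked 10 by height among the 2288, tied with 1 other, and 29 by mean signal. The summit lay 41655 bp downstream of the KRT80 start, past the end of the gene in the authors' annotation, and no other gene was assigned.

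Few intervals without a promoter mark or CpG island were as high as that of KRT80. Of 1394 intervals with neither mark, 3 were higher, and none of those 3 had a gene assigned. Of the 694 with neither mark and a gene assigned, the KRT80 interval was the highest, and the median of that class was 21. Among the 136 intervals that were only downstream of genes it ranked 2. Of the 20 highest intervals with a gene assigned, 18 held a CpG island and 14 had a promoter mark, while that of KRT80 had neither. The KRT80 summit was 42208 bp from that of a further interval, of height 46 and assigned to C3H12orf44 (chr3:134090665-134092330), and no other interval lay within 100 kb of it. In the RefSeq gene order KRT80 was followed by SMIM41 and ATG101.

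**Figure D3:**
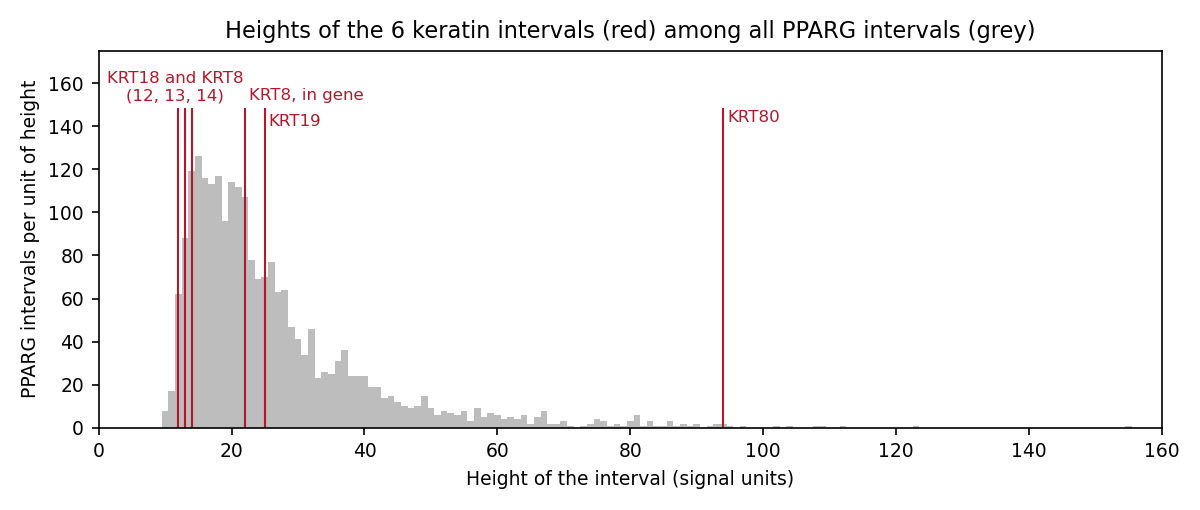
Number of PPARG intervals at each height (signal units), in grey, with the heights of the 6 keratin intervals as red lines. The intervals between KRT18 and KRT8 (12, 13 and 14) lie at the low end, those in KRT8 (22) and at KRT19 (25) near the median of 22, and that at KRT80 (94) in the upper tail.

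The 6 intervals together did not sit high in the list. At or above the median height were 3 of the 6, against 52.4% of all PPARG intervals, and at or above the upper quartile of 31 was only that of KRT80, against 25.5%. No keratin interval held a CpG island, against 24.8% of all PPARG intervals, and 4 had a promoter mark, against 32.7%. The mark counted 2 promoters at the interval closest to KRT18, whose summit was 2266 bp from that start. It counted 1 at each of the other intervals with a mark, so it does not place a summit at a start. With 6 intervals, of which 3 came from a stretch of 10020 bp, these shares describe the sites and were not tested. All 6 lay on chromosomes 3 and 11, which carry the type II and type I keratin clusters, with KRT18 as the type I gene beside KRT8.

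The signal of KRT80 was the most sharply peaked of the 6. The height was 3.63 times the mean signal at KRT80, against a median of 2.14 over all PPARG intervals. Among the 20 highest intervals with a gene this ratio had a median of 3.54 and ran from 2.76 to 5.65, with quartiles of 3.32 and 3.63, so KRT80 lay close to the upper quartile of that group. Between the starts the ratios were 1.65 at the interval closest to KRT8, 1.60 beside it and 1.68 at that closest to KRT18, and all 269 intervals with heights from 12 to 14 had a median of 1.65. At 1.94 in KRT8 and 1.91 at KRT19 the ratio was below 2.06, the lower quartile of the 324 intervals with heights from 22 to 25, so these 2 sites were broader and flatter than most of like height. Their lengths were 1232 and 1166 bp, against a median of 877 bp in those 324.

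**Figure D4:**
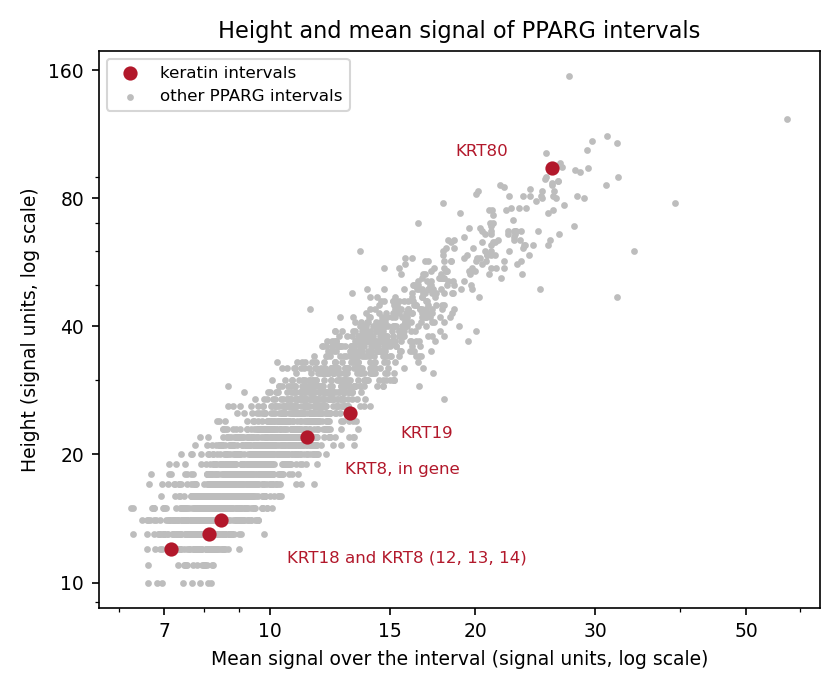
Height against mean signal of each PPARG interval (signal units, log scales), with the 6 keratin intervals in red. KRT80, at 94 and 25.9, lies among the highest intervals, and those in KRT8 and at KRT19 lie in the lower part of the cloud, with more mean signal than most intervals of their height.

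Beyond the 4 members, 2 other keratin genes held intervals. Not counting genes that have only a LOC name, the RefSeq table named 38 keratin genes, so these may not be the whole family. Of the 34 other than the members, 2 (5.88%, Wilson 95% interval 1.63 to 19.1) held an interval, against 9.69% of the 16387 genes named in all. They were KRT15 and KRT78, a type II keratin of stratified epithelia. The KRT78 interval (chr3:133411204-133412269) had a height of 29 and a mean signal of 12.7, at 8792 bp upstream of the start. It was 52736 bp from the interval inside KRT8, and KRT18, KRT8 and KRT78 followed each other directly in the RefSeq gene order. KRT15 and KRT19 counted through 1 interval and KRT18 through those of KRT8, so the 6 keratin genes with an interval rested on 7 intervals at 4 places. Among the 32 keratin genes with none assigned were KRT5 and KRT14, the pair of basal cells, and KRT20. KRT15, also a keratin of basal cells, was among those with an interval. Keratin-associated proteins, which belong to hair and wool, had an interval at 0 of 6 named genes (Wilson upper limit 39.0%).

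In the wider keratin network, 6 of 55 genes (10.9%, Wilson 95% interval 5.10 to 21.8) held an interval, beside the 9.69% of named genes in all. Of 10 desmosome genes, whose products anchor keratin filaments at cell junctions, 1 (10.0%) had an interval, near the share of all named genes. It was JUP. JUP encodes plakoglobin, and its interval of 27 held a CpG island and a promoter mark, at 1418 bp into the gene (chr11:41472400-41473168). The desmoplakin gene DSP, which links keratins to the desmosome, had none assigned. None of 6 hemidesmosome genes (Wilson upper limit 39.0%) or 7 keratin binding partners (35.4%) had any, and both limits lie above the 9.69%. EVPL, which encodes the plakin envoplakin, had intervals of 45 and 14, both downstream of the gene and also assigned to CDK3 and TEN1.

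Of 15 other intermediate filament genes, 3 (20%, Wilson limits 7.05 and 45.2) had intervals. BFSP1 and BFSP2 encode the beaded filament proteins of the lens. BFSP1 had 36 and 21 in the gene, and BFSP2 had 15 downstream of it. LMNB2, a nuclear lamin gene, had 16 in the gene. Of 15 transcription factor genes of simple epithelia, 1 (6.67%, Wilson limits 1.19 and 29.8) had an interval. This was GATA3, with a height of 29 at 27277 bp downstream of its start. For both sets the limits enclose the 9.69% of all named genes. Across the network list the highest interval was the 45 of EVPL, below the 94 of KRT80.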

How the data were processed

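Per the submitters' processing notes, BWA was used and positions refer to Oar_v3.1. The caller of the intervals, its settings, the annotation and the scaling between libraries were not given in the sources used here. Per interval, the deposited table gives the highest and the mean signal and the number of bins. It also gives CpG islands, promoters, assigned genes and the distance from the summit to each gene start. A bin size of about 31.9 bp was estimated here and is not given by the authors. Mean times bins was whole within 0.01 in 100% of intervals. Heights are the values deposited by the authors and rank intervals within this list only. Depth is unknown, and intervals of shares cover counting error only.

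The members and gene lists were chosen with earlier results of these data known. Named were the 4 members, genes sharing their intervals, genes of intervals within 100 kb, and genes of the keratin family and network list with an interval. KRT5, KRT14, KRT20, DSP, the other genes with many or shared intervals and the RefSeq neighbours were named after values were seen. A gene start was taken as the position that all of a gene's summits and distances gave, for genes with at least 2 intervals. The code was run on simulated intervals built by the same rule, which cannot check the authors' sign convention or annotation. Of 1833 gene names, 1588 matched one of 16387 named protein-coding genes of ARS-UI_Ramb_v3.0, 67 of them LOC names matched by gene ID. That assembly served for names and order only. Python 3.11.15, pandas 2.3.3, scipy 1.17.1 and matplotlib 3.10.9 were used. Promoter motifs, foreseen in the design, were not run, since no sequence was used here. No test was made.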

Additional observations from a re-analysis of the deposited data

How the results depend on the processing

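The 6 keratin intervals became 3 at or above the median height and 1, that of KRT80, at or above the upper quartile of height. By mean signal in place of height, the share of intervals at or above that of KRT19 was 23.2% in place of 41.3%, and for KRT80 it was 1.27% in place of 0.481%. On chromosome 3 alone the KRT80 share was 0.772%. The 6 network genes with an interval became 1, JUP, within 10 kb of the gene's start, where 6.05% of named genes had one. The other 27 of 33 alternatives moved their value by at most 1.5 times. Among these, 5 of the 38 keratin genes had an interval with LOC names not matched, and 5 of the 55 network genes had one with no other gene assigned. Both settings were chosen after seeing the data. No paired analysis was possible because each group had 1 library. The unknown depth, the missing input values at the keratin intervals and the lack of replicates limit every height given here.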
